A study of Mus musculus with 7 samples.

Results

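The purine nucleotide cycle genes described here are *Ampd1*, *Ampd2*, *Ampd3*, *Adsl*, *Adssl1* and *Ak1*, chosen by name as 6 of 21938 protein-coding genes. Every ChIP-seq peak that overlaps the body of one of these genes, or lies within 10 kb of any of its annotated transcription start sites (TSSs), was taken from 6 lists of peaks, 1 list per sample. ChIP-seq sequences the DNA that an antibody recovers together with a protein from cross-linked chromatin. The chromatin came from gastrocnemius muscle, a calf muscle, of wild-type male C57BL/6J mice aged 5 months and kept on a light-dark cycle and standard chow. BMAL1 and RNA polymerase II (RNAP2) were immunoprecipitated at Zeitgeber time (ZT) 4 and REV-ERBα at ZT 8, with 2 replicates each, and peaks were called against input DNA. Each factor was mapped at a single time, so the factor and the time of day cannot be told apart between REV-ERBα and the others. The lists came from whole muscle, in which fewer cells of a type and a weaker signal per cell cannot be told apart.

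In the purine nucleotide cycle, AMP deaminase converts AMP to IMP and releases ammonia, adenylosuccinate synthetase joins IMP with aspartate, and adenylosuccinate lyase splits the product into AMP and fumarate. The cycle is known for its high activity in working fast muscle, where removal of AMP keeps the adenylate kinase reaction running toward ATP. *Ampd1* encodes the muscle isoform of AMP deaminase, *Ampd2* the isoform of liver and many other tissues and *Ampd3* the isoform first known from erythrocytes. *Adssl1* encodes the muscle isozyme of adenylosuccinate synthetase, *Adsl* the lyase and *Ak1* the cytosolic adenylate kinase that makes ATP and AMP from a pair of ADP molecules. BMAL1 is the activator of the circadian clock and binds E-boxes with its partner CLOCK, and REV-ERBα is a nuclear receptor of the same clock that represses its targets.

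The 6 lists hold 527912 peaks, and 117 of them lie at the 6 genes. RNAP2 had 34 and 31 of these peaks in replicates 1 and 2, REV-ERBα 13 and 13, and BMAL1 4 and 22. In single lists, RNAP2 peaks lay at all 6 genes in both replicates (76.9% and 86.5% of protein-coding genes), REV-ERBα peaks at 3 and 4 of the 6 (38.7% and 40.1%), and BMAL1 peaks at 3 and 6 of the 6 (38.2% and 84.4%). The whole lists hold 87870 and 168821 RNAP2 peaks, 28881 and 29934 REV-ERBα peaks and 34737 and 177669 BMAL1 peaks, so the BMAL1 replicates differ more in length than the others, at the 6 genes as over the genome. The strength of a peak is given as the −log10 of the p-value that the peak caller set on its summit against input, and the q-value is that p corrected over the genome. Of the 65 RNAP2 peaks at these genes 23 had a q-value of 0.05 or less, as did 2 of the 26 REV-ERBα peaks and 0 of the 26 BMAL1 peaks. In each list one −log10 p recurs, at 20.7% to 31.0% of its peaks, and in BMAL1 replicate 2 that value was 1.87 and in RNAP2 replicate 2 it was 1.99. RNAP2 had a region in both replicates at 9 of 9 marker genes of fast muscle fibers and at 4 of 15 markers of other cell types, with no such region at *Alb* and *Apoa1* of liver or *Adipoq* and *Plin1* of fat. Of 4 slow fiber markers 2 had a region, and *Myh7* and *Myl2* did not, while 41.1% of all protein-coding genes had one. The region counted for *Tnnt1* lay 26 bp from the TSS of *Ppp1r12c*, and that for *Tnni1* lay nearest to *Phlda3*. Among the other cell types, the strongest region lay at the *Eif4a1* TSS for *Cd68* and 273 bp from the TSS for *Dcn*. For *Kdr* and *Rbfox3* it lay 44811 and 85236 bp from the nearest TSS.

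**Figure D1:**
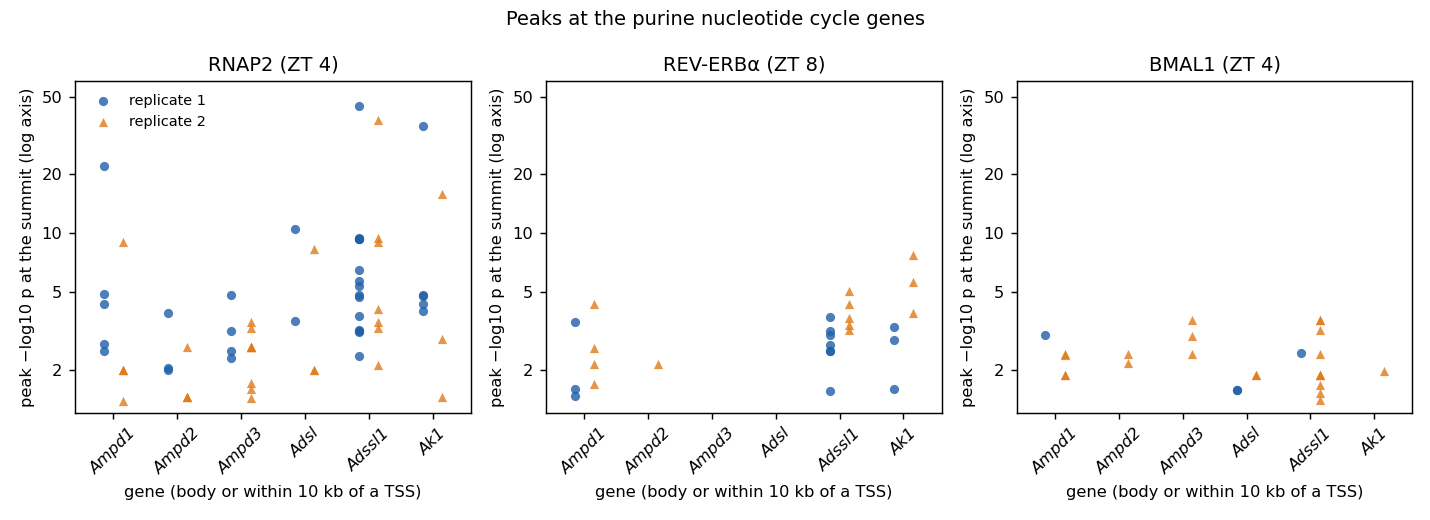
Each point is 1 peak at 1 of the 6 genes, with its −log10 p at the summit on a log axis, for RNAP2, REV-ERBα and BMAL1 and for replicate 1 (circles) and replicate 2 (triangles). RNAP2 reached 44.7 and 37.8 at *Adssl1*, no REV-ERBα peak exceeded 7.69, and no BMAL1 peak exceeded 3.60.

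Peaks of the replicates of a factor that overlap by at least 1 bp were joined into a region, and a gene was counted when it had a region in both replicates. RNAP2 had one at 5 of the 6 genes, all but *Ampd2*, against 41.1% of protein-coding genes. REV-ERBα had one at *Ampd1*, *Adssl1* and *Ak1*, 3 of the 6, against 4.44% of protein-coding genes. The same 3 genes had both an RNAP2 and a REV-ERBα region, as did 3.5% of all genes. BMAL1 had one at *Ampd1* alone, 1 of the 6, against 6.81%. Of the genes with an RNAP2 region, 8.5% had a REV-ERBα region and 10.3% a BMAL1 region. Of those whose RNAP2 region had a −log10 p of at least 5 in each replicate (18.0% of all genes, and *Ampd1*, *Adsl*, *Adssl1* and *Ak1* of the 6), 12.2% had a REV-ERBα and 10.3% a BMAL1 region. With a q-value of 0.05 or less in each replicate, RNAP2 kept 4 of the 6 genes, against 18.9% of all genes, while REV-ERBα and BMAL1 had 0 of the 6, against 1.37% and 0.109%. Each count is of 6 genes and is a description, and with 2 replicates and no reads per peak no test across samples was made. The windows of the 6 genes span 27.8 to 54.2 kb, and the median protein-coding gene has 30.2 kb.

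*Ampd1*, the muscle AMP deaminase gene at chr3:103074014-103099720 on the plus strand (mm10, ENSMUSG00000070385), was the one gene of the 6 with a region of all 3 factors, which 0.802% of protein-coding genes have. Its RNAP2 region at chr3:103073706-103076350 reached a −log10 p of 22.1 and 9.02 in the first and second replicate, at fold enrichments over input of 10.4 and 5.36. The summits lay 72 and 20 bp past the nearest TSS, and the region ranked 1201 of 10752 by the lower −log10 p of its replicates. RNAP2 was thus strong at the start of the gene in both replicates, and the values differed between them by more than at *Adsl* or *Adssl1*.

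REV-ERBα had 2 regions at *Ampd1*, both in an intron and both near the peak caller's limit in replicate 1. The first, at chr3:103073996-103074704, had a −log10 p of 1.47 and 2.59, at fold enrichments of 1.65 and 2.29, and it ranked 1231 of 1263. The second, at chr3:103078959-103079790, had a −log10 p of 1.59 and 4.35, at fold enrichments of 1.79 and 3.01, and it ranked 1151, a place that 50 regions share. The first lies inside the RNAP2 region and the second does not overlap an RNAP2 region present in both replicates. Replicate 1 had a further peak 3937 bp upstream of the gene with a −log10 p of 3.49, which replicate 2 lacked, and replicate 2 had a peak of 1.69 that lies nearest to the TSS of the neighboring *Dennd2c*.

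The single BMAL1 region of the 6 genes lies at chr3:103074479-103075443 in an *Ampd1* intron, with a −log10 p of 2.995 and 1.87, at fold enrichments of 2.45 and 2.02. The replicate 2 value is the one that 29.4% of the peaks of that list share, and neither replicate had a q-value of 0.05 or less. The region shares rank 1216 of 2742 with 656 regions in all, itself included. Its replicate summits lay 182 bp apart, and it overlapped the REV-ERBα and the RNAP2 region, as 4.3% and 4.38% of all BMAL1 regions do. Joining each peak to the next that it overlaps, a merged site with a peak from all 4 lists of the clock factors spans chr3:103073996-103075443. No base of it lies in a peak of all 4 lists. The BMAL1 replicate 2 peak, chr3:103075070-103075382, overlaps neither REV-ERBα peak and is joined through the BMAL1 replicate 1 peak. A second site in 3 of the 4 lists spans chr3:103078959-103079827. Requiring a −log10 p of at least 2 of every peak left no BMAL1 region and no such site at *Ampd1*.

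The sequences around the *Ampd1* summits are shown because this gene holds the one BMAL1 region and 2 of the sites with peaks of both BMAL1 and REV-ERBα. They are 201 bases of the GRCm38 reference on the plus strand, centered on the summit of the stronger replicate, at chr3:103075011-103075211 for BMAL1 and chr3:103079396-103079596 for the second REV-ERBα region. Capitals mark a match to one of the motifs searched on both strands, which were the E-box CACGTG, the related CACGTT, the myogenic E-box CAGCTG, the nuclear receptor half-site AGGTCA and a MEF2 consensus, and no match overlapped another.
Ampd1 BMAL1 summit: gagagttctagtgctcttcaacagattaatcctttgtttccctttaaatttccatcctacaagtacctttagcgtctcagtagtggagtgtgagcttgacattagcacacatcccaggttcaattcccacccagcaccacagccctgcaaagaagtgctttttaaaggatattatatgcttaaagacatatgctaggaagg
Ampd1 REV-ERBα intron summit: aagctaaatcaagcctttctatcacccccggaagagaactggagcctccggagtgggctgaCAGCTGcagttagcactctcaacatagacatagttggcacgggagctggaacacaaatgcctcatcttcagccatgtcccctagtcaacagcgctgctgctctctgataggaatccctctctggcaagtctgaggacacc
The BMAL1 window holds none of the 5 motifs, and of all BMAL1 windows of this length 2.55% hold CACGTG, 2.52% CACGTT, 7.08% CAGCTG, 10.7% AGGTCA and 5.65% a MEF2 match. The REV-ERBα window holds 1 CAGCTG, 39 bp before the summit, and no AGGTCA. The window of the REV-ERBα region at the start of the gene holds no match.

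*Ampd2*, the AMP deaminase gene of liver and other tissues at chr3:108074062-108086651 on the minus strand (ENSMUSG00000027889), had no region of any factor in both replicates. RNAP2 replicate 1 had 3 peaks with a −log10 p of 3.91, 2.04 and 1.99, and replicate 2 had 4 with 2.60, 1.45, 1.45 and 1.45. None overlapped between the replicates, and the highest of each list lay 9611 bp from the nearest *Ampd2* TSS and 489 bp upstream of the neighboring *Gnat2*. The other peaks were 1 REV-ERBα peak of 2.15 in replicate 2 and 2 BMAL1 peaks of 2.401 and 2.15 in replicate 2, so each clock factor had peaks in a single list.

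*Ampd3*, the erythrocyte AMP deaminase gene at chr7:110768206-110812405 on the plus strand (ENSMUSG00000005686), had 2 weak RNAP2 regions. The region at chr7:110768480-110769183 near the first TSSs had a −log10 p of 2.29 and 3.51, at fold enrichments of 2.24 and 2.93, and ranked 7497 of 10752. A region about 5 kb upstream, at chr7:110762905-110763384, had 3.15 and 2.60 with a fold enrichment of 2.88 and 2.51. RNAP2 replicate 1 also had a peak of 4.79 with its summit 58 bp before the first TSS, and replicate 2 had none that overlapped it. REV-ERBα had 0 peaks at *Ampd3* in either replicate, and BMAL1 had 3 in replicate 2, with a −log10 p of 3.60, 2.98 and 2.401, and 0 in replicate 1. The BMAL1 peaks of 3.60 and 2.98 lie inside *Ampd3* but nearest to a TSS of the neighboring *Rnf141*, 9825 and 11436 bp away.

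*Adssl1*, the muscle adenylosuccinate synthetase gene at chr12:112620045-112641360 on the plus strand (ENSMUSG00000011148), carried the strongest RNAP2 signal of the 6 genes. The region over its start, chr12:112617873-112622254, had a −log10 p of 44.7 and 37.8, at fold enrichments of 15.3 and 12.8, and ranked 47 of 10752. Its summits lay 993 bp before the TSS in replicate 1 and 60 bp before it in replicate 2. The gene had 6 RNAP2 regions in both replicates, a number reached by 0.082% of protein-coding genes. Among the fast fiber markers, *Tnnt3* with 8 and *Actn3* with 7 reached this number, and the others had 1 to 3. The number of regions does not measure coverage, since overlapping peaks are joined. The 1 region of *Ckm* spans chr7:19409070-19425680, and the strongest of *Myh4* spans chr11:67235276-67257903. Of the other 5 at *Adssl1*, the region at chr12:112625390-112626355 inside the gene was strong in both replicates, at 9.46 and 9.04. Those at chr12:112624344-112625209, chr12:112626698-112628943 and chr12:112629003-112630554 had 3.76 and 3.51, 6.45 and 2.11, and 9.34 and 4.09. The last, at chr12:112644737-112645248 with 9.29 and 9.45, lies 14 bp from the TSS of *Siva1*, a gene linked to apoptosis, and is nearer to that gene than to *Adssl1*.

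REV-ERBα had 4 regions in both replicates at *Adssl1*, a number that 0.0547% of protein-coding genes reach. It had at least 2 such regions at each of *Ampd1*, *Adssl1* and *Ak1*, against 0.556% of genes. Fast fiber markers had such regions, with 5 at *Tnnt3*, 2 each at *Actn3* and *Pvalb*, and 1 each at *Ckm*, *Acta1*, *Mylpf* and *Myh4*. *Myh1* and *Myh2* had 0. These counts do not measure strength or width. The single *Ckm* and *Myh4* regions span chr7:19409683-19424678 and chr11:67235578-67262847. By the lower replicate, the strongest region ranked 68 at *Ckm*, 71 at *Acta1*, 111 at *Myh4*, 132 at *Tnnt3* and 160 at *Pvalb*. At *Actn3* and *Mylpf* it ranked 394 and 454 of 1263, against 393 at *Adssl1*. The *Adssl1* count was 2 with a −log10 p of at least 3 or within 1 kb of a TSS, 0 with a q-value of 0.05 or less, and 7 in replicate 1 alone. The upstream region at chr12:112618062-112619535 had a −log10 p of 3.72 and 3.38, at fold enrichments of 2.47 and 2.44, which made it the strongest of the 8 member regions by the lower replicate, at rank 393 of 1263. The region at the start of the gene, chr12:112620130-112621331, had 1.55 and 5.04, so its replicates differed most among the 4. The regions inside the gene had 3.02 and 3.68 at chr12:112625446-112626700, and 2.68 and 3.18 at chr12:112629471-112630266. None reached a q-value of 0.05 in either replicate.

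All 4 REV-ERBα regions at *Adssl1* overlap an RNAP2 region, as do 6 of the 8 REV-ERBα regions at the 6 genes, against 32.9% of all 1263, and 1 of the 8 overlaps a BMAL1 region, against 7.68%. The replicate summits of the 4 lay 726, 825, 649 and 521 bp apart. A gap of 500 bp or more was found in 18.0% of REV-ERBα regions, and the median was 186 bp over all and 31 bp over the 100 strongest. These regions thus join overlapping peaks with no common summit, and the part of the RNAP2 signal in them was not tested. BMAL1 had 1 peak at *Adssl1* in replicate 1, of 2.44, and 10 in replicate 2, of 1.40 to 3.60, none of which overlapped it. At 3 places a BMAL1 peak of 1 list met both REV-ERBα lists, and the upstream one combined 3.18 in BMAL1 replicate 2 with 3.72 and 3.38.

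Counting sites where 3 or 4 of the lists of the clock factors had a peak, *Ampd1* and *Adssl1* held one, 2 of the 6 genes, against 1.62% of protein-coding genes, 3.04% of those with an RNAP2 region and 4.71% of those with the stronger RNAP2 region. Without either REV-ERBα replicate, and with a peak required in all 3 other lists, *Ampd1* alone kept one, 1 of the 6. Requiring a −log10 p of at least 2 or of at least 3 left *Adssl1* alone, so neither gene held its site under every setting.

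The windows around the first and the last REV-ERBα region of *Adssl1* are printed for the motifs they hold, from chr12:112618212-112618412 and chr12:112630045-112630245 (GRCm38, plus strand), with capitals as above.
Adssl1 upstream REV-ERBα summit: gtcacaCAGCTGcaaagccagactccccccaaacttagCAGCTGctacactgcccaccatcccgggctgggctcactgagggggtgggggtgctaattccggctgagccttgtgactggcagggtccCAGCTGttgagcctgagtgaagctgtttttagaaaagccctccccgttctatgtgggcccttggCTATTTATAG
Adssl1 intron REV-ERBα summit: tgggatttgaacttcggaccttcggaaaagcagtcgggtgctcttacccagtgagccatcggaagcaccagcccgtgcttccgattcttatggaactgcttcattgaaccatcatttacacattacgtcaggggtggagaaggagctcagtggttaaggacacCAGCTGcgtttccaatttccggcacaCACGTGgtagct
The upstream window holds CAGCTG 3 times, 94 and 62 bp before and 27 bp after the summit, and a MEF2 match 91 bp after it. The intron window holds 1 CAGCTG and 1 CACGTG, 63 and 89 bp after the summit, and it is the single member window with CACGTG. This window lies outside the replicate 1 peak, which ends at chr12:112629858, so both matches fall under the replicate 2 peak alone. The other REV-ERBα windows of *Adssl1* hold no match. Since the replicate summits lie over 500 bp apart, a window centered on the other replicate would show other bases.

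**Figure D2:**
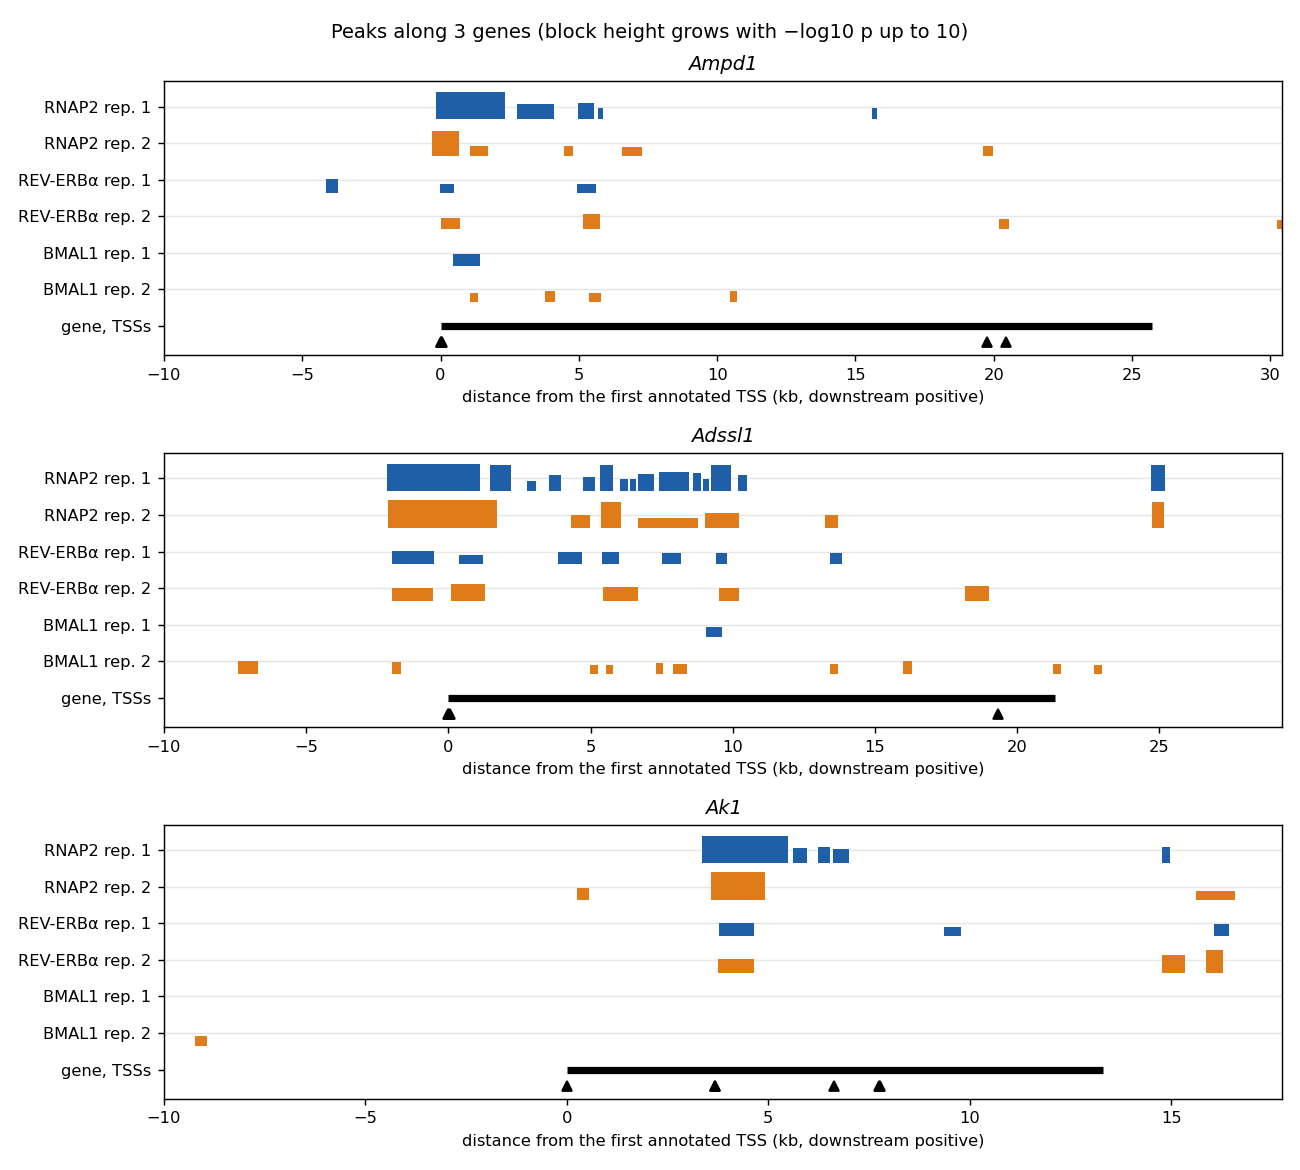
Peaks of the 6 lists along *Ampd1*, *Adssl1* and *Ak1*, against the distance in kb from the first annotated TSS, with blocks as wide as the peak and higher for a higher −log10 p up to 10; the black bar is the gene and triangles mark TSSs. *Adssl1* shows 15 and 7 RNAP2 peaks and REV-ERBα peaks over the same stretch, while at *Ak1* the strongest RNAP2 peaks, of 35.4 and 15.8, and a REV-ERBα region lie at the second cluster of TSSs.

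*Adsl*, the adenylosuccinate lyase gene at chr15:80948490-80970946 on the plus strand (ENSMUSG00000022407), had 1 RNAP2 region, at chr15:80948234-80948793 over its TSSs. The −log10 p was 10.5 and 8.32, the fold enrichment was 6.25 and 4.95, the summits lay 15 bp apart, and the region ranked 1373 of 10752. REV-ERBα had 0 peaks at *Adsl* in either replicate. BMAL1 had 2 peaks of 1.58 in replicate 1 and 2 of 1.87 in replicate 2, and none of them overlapped. *Adsl* thus had a narrow RNAP2 signal at its start, close in both replicates, and no REV-ERBα peak beside it.

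*Ak1*, the cytosolic adenylate kinase gene at chr2:32621758-32635058 on the plus strand (ENSMUSG00000026817), had 1 RNAP2 region, at chr2:32625105-32627236. The −log10 p was 35.4 and 15.8 and the fold enrichment 13.0 and 6.65, at rank 362. The summits lay 90 and 160 bp past the TSSs at 32625437 and 32625438, and neither replicate had an RNAP2 peak within 250 bp of the first annotated TSS at 32621758. A replicate 2 peak of 2.86 lay 410 bp past that first TSS. The main RNAP2 signal was thus at the internal start sites in both replicates, although replicate 2 was weaker by both measures.

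REV-ERBα had 2 regions at *Ak1*. The region at chr2:32625500-32626400 in an intron, inside the RNAP2 region, had a −log10 p of 3.29 and 3.89, at fold enrichments of 2.39 and 2.69. The region at chr2:32637622-32638205, past the end of the gene and 8320 bp from its nearest TSS, had 2.85 and 7.69 and a fold enrichment of 2.30 and 4.12. Its peak in replicate 2 had a −log10 q of 3.15, and with a neighboring replicate 2 peak at a −log10 q of 1.302 it made up the 2 REV-ERBα peaks of the 6 genes with a q-value of 0.05 or less. The downstream region did not overlap an RNAP2 region present in both replicates, but RNAP2 replicate 2 had a peak of 1.45 over it, at chr2:32637367-32638347. BMAL1 had 1 peak at *Ak1*, of 1.97 in replicate 2, 9019 bp upstream.

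The downstream *Ak1* window, chr2:32637741-32637941 (GRCm38, plus strand), is printed because it was the only one of the 8 REV-ERBα windows at the 6 genes with AGGTCA, and the promoter of the internal start site because RNAP2 lay over it. The promoter covers the 250 bases before the TSS at 32625437, chr2:32625187-32625436, from the RefSeq promoter table of GRCm38.p6, in which 5 of the 6 genes had an entry.
Ak1 downstream REV-ERBα summit: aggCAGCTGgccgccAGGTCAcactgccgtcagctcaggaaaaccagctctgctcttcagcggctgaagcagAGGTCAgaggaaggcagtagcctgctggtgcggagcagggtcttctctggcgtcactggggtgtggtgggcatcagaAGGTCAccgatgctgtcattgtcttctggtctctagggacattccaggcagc
Ak1 internal promoter: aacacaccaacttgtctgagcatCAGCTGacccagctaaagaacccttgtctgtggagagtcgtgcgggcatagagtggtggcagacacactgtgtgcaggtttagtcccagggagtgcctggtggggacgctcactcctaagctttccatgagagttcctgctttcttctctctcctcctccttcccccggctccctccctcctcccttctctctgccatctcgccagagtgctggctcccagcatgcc
The downstream window holds AGGTCA 3 times, 85 and 28 bp before and 49 bp after the summit, and 1 CAGCTG 97 bp before it. The promoter holds 1 CAGCTG, 227 bp before the TSS, a motif found in 13.0% of 32851 promoter windows of this length. It holds no AGGTCA, which 14.0% of these windows hold. Among the 6 genes, AGGTCA lay 69 bp before the TSS of *Adssl1* and in the windows before the *Ak1* TSSs at 32621758 and 32628390. The intron window of *Ak1* holds 1 CAGCTG, 44 bp after the summit.

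Over the 8 REV-ERBα regions of the 6 genes, 5 held CAGCTG within 100 bp of the summit, against 12.7% of all 1263 regions. AGGTCA was in 1 of the 8, against 13.1%, CACGTG in 1, against 3.40%, and a MEF2 match in 1, against 4.28%, while CACGTT was in 0, against 3.56%. Within 50 bp CAGCTG was in 3 of the 8, against 6.81%, and within 250 bp in 5, against 26.6%. AGGTCA was in 4 of the 8 within 250 bp, against 27.6%. These matches describe the letters of the windows, and 4 of the 8 regions belong to 1 gene.

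**Figure D3:**
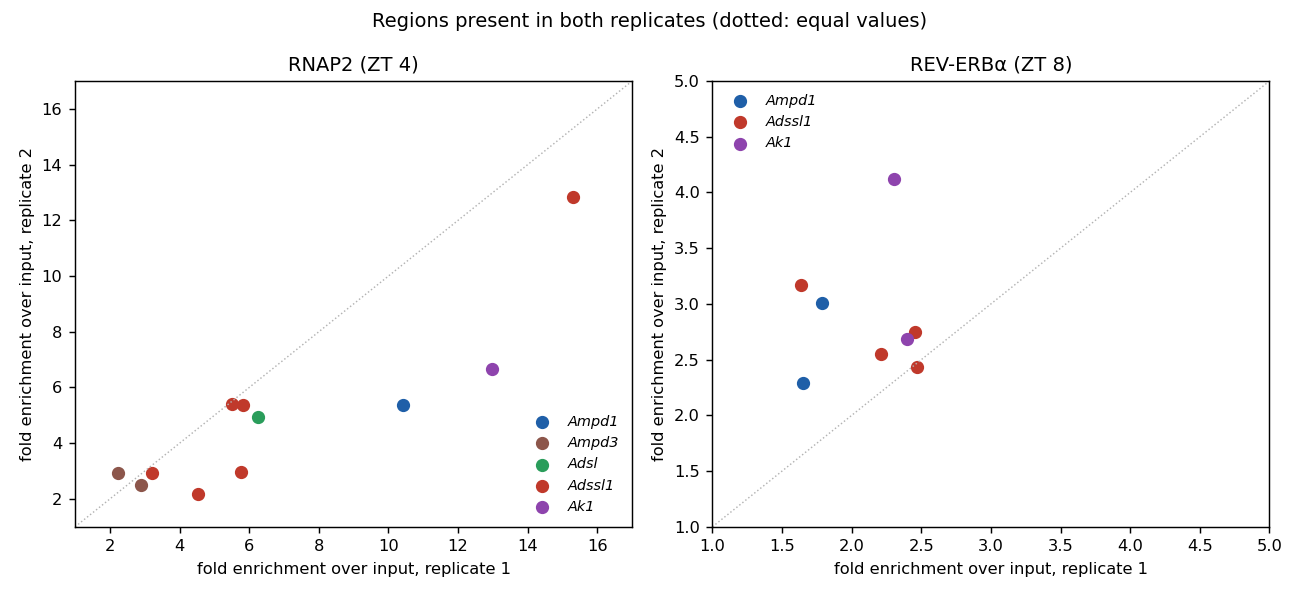
Each point is a region present in both replicates at 1 of the 6 genes, with the fold enrichment over input in replicate 1 on the horizontal and in replicate 2 on the vertical axis, for RNAP2 and REV-ERBα; the dotted line marks equal values. The REV-ERBα regions lie between 1.64 and 2.47 in replicate 1 and between 2.29 and 4.12 in replicate 2, and the first RNAP2 region of *Adssl1* lies at 15.3 and 12.8.

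The strongest RNAP2 peak gave the same order of the 6 genes in both replicates, by −log10 p and by fold enrichment. The fold enrichment was 15.3 and 12.8 at *Adssl1*, 13.0 and 6.65 at *Ak1*, 10.4 and 5.36 at *Ampd1*, 6.25 and 4.95 at *Adsl*, 3.75 and 2.93 at *Ampd3*, and 3.29 and 2.51 at *Ampd2*. At *Ampd3* and *Ampd2* the strongest peaks of the replicates do not overlap, and those of *Ampd2* are the peaks 9611 bp from its nearest TSS and 489 bp from that of *Gnat2*, so these values are not replicates of 1 site. The ranges of the replicates overlapped between each neighbor in this order except between *Adsl* and *Ampd3*. By −log10 p the values of *Adssl1* also stood clear of those of *Ak1*, which had 35.4 and 15.8. The 4 genes at the top thus stood above *Ampd3* and *Ampd2* in both replicates. Neighbors within the 4 kept their order in each replicate, although their ranges of fold enrichment overlap. Replicate 1 was the higher at every gene, so these ranges also hold a difference between the lists, and whether neighbors differ was not tested.

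RNAP2 peaks covered 33.1% and 32.3% of the *Adssl1* body, 23.7% and 12.4% of *Ak1*, and 18.1% and 10.7% of *Ampd1*. Coverage was 1.98% and 3.15% at *Adsl*, 1.39% and 5.50% at *Ampd3*, and 4.27% and 0% at *Ampd2*. The median gene with an RNAP2 region in both replicates had 1.81% and 3.70%. Among all protein-coding genes *Adssl1* lay at percentiles 99.4 and 99.2, *Ak1* at 98.9 and 95.2 and *Ampd1* at 98.2 and 93.6, so the muscle isoforms and *Ak1* were high in both replicates. A share of the body is larger for a short gene with 1 wide peak at its start, and *Ak1* is the second shortest of the 6, at 13.3 kb.

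**Figure D4:**
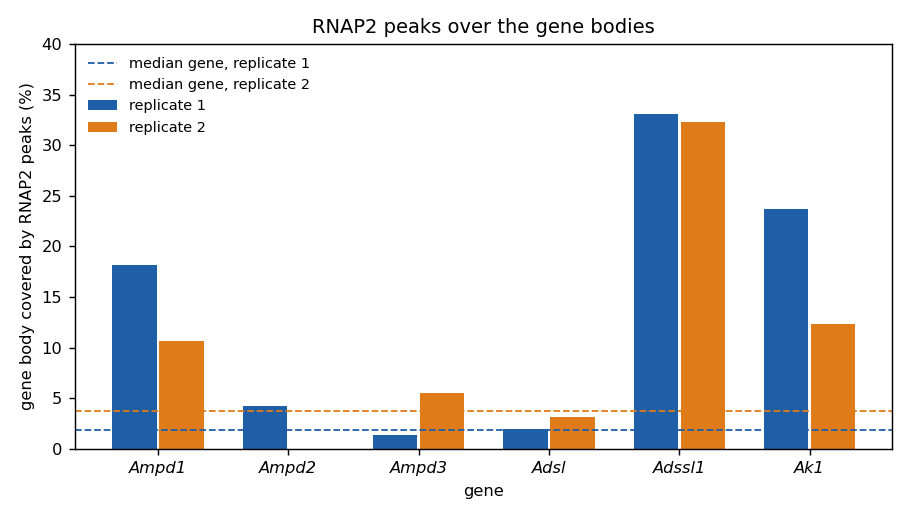
Bars give the percent of each gene body covered by RNAP2 peaks in replicate 1 (blue) and replicate 2 (orange), and dashed lines give the median of genes with an RNAP2 region in both replicates. *Adssl1* reached 33.1% and 32.3%, *Ampd2* had 4.27% in replicate 1 and 0% in replicate 2, and the medians were 1.81% and 3.70%.

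A list of 39 other genes of purine nucleotide metabolism, with adenylate kinases and subunits of the AMP-activated kinase, shows how the cycle genes stand among their neighbors in the pathway. RNAP2 had a region in both replicates at 22 of the 39, or 56.4%, against 41.1% of all genes, REV-ERBα at 3, or 7.69%, and BMAL1 at 2, or 5.13%. *Adss*, the widely expressed isozyme of *Adssl1*, had 1 RNAP2 region at its TSS with a −log10 p of 11.3 and 4.20 and no region of either clock factor, but it was named here after its values were seen. The strongest RNAP2 regions in the list were those at *Gart*, an enzyme of de novo synthesis, with 32.7 and 27.9, at *Prkaa2*, a catalytic subunit of the AMP-activated kinase, with 25.6 and 14.9, and at *Impdh2*, which turns IMP toward GMP, with 16.6 and 13.0. The *Gart* region lies nearest to the TSS of *Son* and the *Impdh2* region to that of *Ndufaf3*, so these signals cannot be divided between the adjoining genes.

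The REV-ERBα regions of the other genes were 1 region shared by *Ppat* and *Paics*, which encode steps of de novo purine synthesis and start from adjacent promoters, and 1 near *Prkag3*, a muscle subunit of the AMP-activated kinase. The first had a −log10 p of 4.32 and 4.21 and ranked 296 of 1263. The second had 5.78 and 10.004 and ranked 202, but its nearest TSS is that of *Cyp27a1*, 642 bp away. Both ranked above every REV-ERBα region of the 6 cycle genes. BMAL1 had regions of 2.48 and 2.401 in *Adk*, which makes AMP from adenosine, and of 2.995 and 2.69 in *Pnp*, which splits purine nucleosides. The *Adk* window spans 406 kb, more than any of the 6 genes, and its BMAL1 region lies 44710 bp from the nearest TSS.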

How the data were processed

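The 6 deposited lists of ChIP-seq peaks were used, 2 replicates each of BMAL1 (ZT 4), REV-ERBα (ZT 8) and RNAP2 (ZT 4). Reads had been mapped by the authors to mm10 with BWA (7.12 in the submitters' processing notes), cleared of duplicates and of reads with several matches, and down-sampled to similar numbers within a factor. MACS2 2.1.1 then called peaks in each sample on its own, with input as the control and a p-value of 0.05 as the limit. Down-sampling and this lenient cutoff bear on how many weak peaks a list holds. The authors' peak caller gave each deposited peak a −log10 p, a −log10 q and a fold enrichment over input, all at the summit. A deposited score, which repeats the −log10 p on another scale, was not used. Reads and signal tracks were not analysed here, so the depth behind a single peak is unknown and no interval was given. The peak caller's p and q compare a peak with input and do not cover the spread between mice.

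Genes and TSSs are those of GENCODE M21, and motifs were read from GRCm38. An overlap of 1 bp sufficed to join peaks into a region, regions were ranked by the weaker replicate's −log10 p, and genes were counted beside the share of 21938 protein-coding genes under the same rule. The 6 genes and the lists were chosen with earlier results of these data known. Named beside the 6 were every other purine gene with a BMAL1 or REV-ERBα region and the 3 with the strongest RNAP2 region. Genes whose TSS lies nearest to a region or, in some cases, to a single peak were also named. *Adss* was named outside this rule, as were the cell type markers. Nothing in the labels or methods says whether a replicate was 1 mouse or several. Alternatives were stricter peaks, other overlaps, equal lists, other distances, wider and narrower motif windows, and each replicate left out. The background of genes with a strong RNAP2 region was added after the data were seen. Python 3.11.15, numpy 2.4.6, pandas 2.3.3 and matplotlib 3.10.9 were used, and the code was tested on simulated data.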

Additional observations from a re-analysis of the deposited data

How the results depend on the processing

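The counts of genes with an RNAP2 region stayed at 4 to 6 of 6 under every alternative run, and *Ampd2* joined when the distance was 50 kb or either RNAP2 replicate was left out. The count for REV-ERBα was 2 with a −log10 p of at least 2 or 3 (*Adssl1* and *Ak1*), 0 with a q-value of 0.05 or less, and 3 to 4 with either replicate left out. BMAL1 had 0 genes with a −log10 p of at least 2 or 3, with a q-value of 0.05 or less and with lists of equal length, and 3 to 6 with either replicate left out. For these counts of 1 factor with a replicate left out, any peak of the remaining list counted. In replicates 1 and 2 such a peak lay at 76.9% and 86.5% of protein-coding genes for RNAP2. The shares were 38.7% and 40.1% for REV-ERBα and 38.2% and 84.4% for BMAL1. Shared sites were at 1 gene with a −log10 p of at least 2 or 3, at 0 with a q-value of 0.05 or less and at 1 to 2 with each replicate left out. Distance and overlap rules left the number of the 6 genes with a region of a clock factor as it was, but not the regions per gene. Within 1 kb of a TSS, REV-ERBα had 2 regions at *Adssl1*, 1 at *Ak1* and 1 at *Ampd1*, and within 5 kb it had 1 at *Ak1*. With 50 kb, BMAL1 had 3 regions at *Ampd1*, and of the 39 other genes 6 had a BMAL1 and 5 a REV-ERBα region. With the stricter overlap of peaks, *Ampd1* had 1 shared site and 0 of the 39 had a BMAL1 region. In the motif windows, 50 bp gave 3 REV-ERBα regions with CAGCTG, 0 with CACGTG and 0 with MEF2, and 250 bp gave 4 with AGGTCA and 1 BMAL1 region with AGGTCA. Of 66 alternatives to the counts of genes and of motif windows, 49 left the count within 1.5 times and 17 moved it. For the regions per gene, the counts over the 39 genes and the background shares, 238 alternatives left the value within 1.5 times and 90 moved it. In both tallies a count of 0 that stayed 0 was taken as not moved. Weak peaks, at or near the recurring −log10 p of a list and with no read counts here, limit the counts of the clock factors. No paired analysis was possible because each result is a count of peaks or regions from no test across samples.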
